A study of Mus musculus with 16 samples.

Results

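The ADAM and ADAMTS proteases described here are 8 of the 58 genes of the Adam, Adamts and Adamtsl families (*Adamdec1* included) among the 49452 genes measured in sorted mouse lung cells. They comprise 3 ADAM genes (*Adam12*, *Adam19* and *Adam33*) and 5 ADAMTS genes (*Adamts1*, *Adamts4*, *Adamts5*, *Adamts9* and *Adamts12*), all found by their symbol. The 8 genes were selected on their levels in the 4 groups of these same mice, so their values are given as a description and without a test. Tests are given only for the other genes of the system.

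ADAM proteases are membrane-anchored zinc metalloproteases that cut the outer part off membrane proteins, releasing growth factors and other ligands. ADAMTS proteases lack the membrane anchor, are secreted, and carry thrombospondin repeats that bind them to the matrix, where several of them cut large chondroitin sulfate proteoglycans such as versican. Both kinds are made as inactive precursors that furin-like convertases activate, and tissue inhibitors of metalloproteinases (TIMPs) block them. In the lung they are best known for remodeling the matrix around smooth muscle cells and fibroblasts.

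RNA of tdTomato-positive cells of the left lung lobe was sequenced by SmartSeq2 in 16 mice, 4 in each of 4 groups. All mice carried tdTomatoflox, a red reporter that Cre turns on for good, with either Acta2-CreERT2 (*Acta2-tdT*) or Pdgfra-CreERT2 (*Pdgfra-tdT*), in which the promoter of *Acta2* (α-smooth muscle actin) or of *Pdgfra* (platelet-derived growth factor receptor-α) drives a tamoxifen-dependent Cre. Each line received saline or bleomycin, which injures the lung and leads to fibrosis, and was examined on day 14, at 11 weeks of age. *Acta2-tdT* mice ate tamoxifen food (400 mg/kg) from 5 days after the agent, and *Pdgfra-tdT* mice had 5 intraperitoneal injections of 3 mg at 6 weeks of age, before it. The line and the tamoxifen schedule can therefore not be told apart, and tdTomato in *Acta2-tdT* cells of bleomycin mice was switched on after the injury. Mice are numbered 1 to 4 with saline and 5 to 8 with bleomycin.

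Values are FPKM (fragments normalized to transcript length and to the mapped fragments of each mouse) as deposited, beside FPKM scaled so that the nuclear protein-coding genes of every mouse had the same sum. Before scaling that sum ranged from 35602.5 to 57787.7 in *Acta2-tdT* saline mice and from 231058.1 to 463127.0 in *Acta2-tdT* bleomycin mice, and the median log2 difference of all genes tested in this line was 1.76. The corresponding sums were 29963.6 to 59839.9 with saline and 28512.0 to 137952.1 with bleomycin in *Pdgfra-tdT* mice. Summed FPKM of 8 smooth muscle markers were 180 to 417 and 1800 to 4720 in *Acta2-tdT* mice, and 1.84 to 32 in all *Pdgfra-tdT* mice. Summed FPKM of 9 fibroblast markers were 27.2 to 76.1 and 1060 to 3190 in *Acta2-tdT* mice, and 8.3 to 68.4 and 3.02 to 166 in *Pdgfra-tdT* mice, where the highest with bleomycin was mouse 5 and *Tcf21* was listed at 0 in all 4 bleomycin mice. *Pdgfra* itself had 0.273 to 0.562 FPKM in *Acta2-tdT* and 2.14 to 3.82 in *Pdgfra-tdT* saline mice. With bleomycin it was lower in every *Pdgfra-tdT* mouse (0.977 to 2.45 FPKM) than in any *Acta2-tdT* mouse (2.49 to 11.9), and scaled values of 0.873 to 2.33 and 0.529 to 1.26 overlapped. As deposited, neither *Pdgfra* nor the fibroblast sum was thus higher in the *Pdgfra-tdT* line with bleomycin. Leukocyte markers summed to 742 to 1480 FPKM in *Acta2-tdT* saline mice and to 5820 to 9680 in *Acta2-tdT* bleomycin mice. In every *Acta2-tdT* mouse this was above the smooth muscle sum. In *Pdgfra-tdT* mice they summed to 55.1 to 114 FPKM with saline and to 373 to 3200 with bleomycin. Fewer cells of a type and less RNA per cell cannot be told apart in such samples.

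To show what places the 8 genes in 1 enzyme class, the coding sequence of the zinc-binding site of each is printed with the codons of its 3 zinc-binding histidines and of the catalytic glutamate in capitals. Each run has 33 bases, 5′ to 3′ on the coding strand, from the GENCODE models of GRCm38.
*Adam12*: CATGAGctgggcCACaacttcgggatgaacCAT
*Adam19*: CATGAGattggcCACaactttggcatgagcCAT
*Adam33*: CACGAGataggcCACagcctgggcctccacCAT
*Adamts1*: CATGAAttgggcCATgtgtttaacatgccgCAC
*Adamts4*: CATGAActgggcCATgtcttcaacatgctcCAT
*Adamts5*: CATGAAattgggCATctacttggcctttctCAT
*Adamts9*: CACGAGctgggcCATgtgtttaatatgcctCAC
*Adamts12*: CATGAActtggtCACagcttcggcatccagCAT

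These sites lie within exon 11 in each of the 3 ADAM genes, and across an exon junction in each of the 5 ADAMTS genes. The residue 3 codons after the middle histidine, the eighth of the 11, is glycine in *Adam12*, *Adam19*, *Adam33*, *Adamts5* and *Adamts12* and asparagine in *Adamts1*, *Adamts4* and *Adamts9*. *Adam12* and *Adam19* shared 28 of the 33 bases, *Adamts1* and *Adamts9* 28, and *Adamts1* and *Adamts4* 27. *Adamts5* shared no more than 21 with any other member, which it did with *Adam19*. On GRCm38 the site of *Adam19* is at chr11:46125050-46125082 on the plus strand, and that of *Adam12* at chr7:133961158-133961190 on the minus strand. That of *Adam33* is at chr2:131055130-131055162 on the minus strand.

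The ADAM genes themselves span chr7:133883199-134225097 (*Adam12*, ENSMUSG00000054555), chr11:46055992-46147343 (*Adam19*, ENSMUSG00000011256) and chr2:131050817-131063814 (*Adam33*, ENSMUSG00000027318). *Adamts1* (ENSMUSG00000022893, chr16:85793827-85803113) and *Adamts5* (ENSMUSG00000022894, chr16:85858170-85901125) are neighbors on the minus strand, with 55056 bases between them. *Adamts4* (ENSMUSG00000006403) spans chr1:171250421-171260637, *Adamts9* (ENSMUSG00000030022) chr6:92772699-92943492 and *Adamts12* (ENSMUSG00000047497) chr15:11064790-11346867. Whether reads kept their strand is not given in the sources used here, so reads of antisense genes cannot be told apart from those of the members.

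*Adam12*, whose product sheds ligands of the epidermal growth factor receptor and cuts insulin-like growth factor binding proteins, was low in saline-treated *Acta2-tdT* mice, at 0.282, 0.159, 0.288 and 0.378 FPKM in mice 1 to 4. In the bleomycin-treated mice 5 to 8 it had 4.90, 2.98, 4.55 and 5.87 FPKM. All 4 bleomycin mice lay above all 4 saline mice, and the lowest of their Cufflinks lower bounds (2.70) was above the highest upper bound with saline (0.462). The log2 difference, on log2(FPKM + 1), was 2.1 (SE 0.17). After scaling, the bleomycin mice (0.513 to 0.757) were still above the saline mice (0.219 to 0.376).

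*Adam19*, which sheds neuregulins and is needed for heart development, had the largest log2 difference of the 8 as deposited. Its FPKM were 0.242, 0.336, 0.341 and 0.411 in *Acta2-tdT* saline mice, and 10.1, 5.86, 8.21 and 11.3 in *Acta2-tdT* bleomycin mice. The log2 difference was 2.86 (SE 0.19), and the lowest lower bound with bleomycin, 5.39, was far above the highest upper bound with saline, 0.498. The size of such differences depends on the value added before the log for genes this low, and with 0.1 in place of 1 it was 4.35 for *Adam19*, 3.63 for *Adam12* and 3.94 for *Adamts4*. Scaled values of 0.926 to 1.56 with bleomycin did not overlap those of 0.323 to 0.463 with saline.

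*Adam33*, a gene tied to asthma and airway smooth muscle, had another pattern. With saline it had the highest mean of the members in *Acta2-tdT* cells, at 4.22, 3.49, 3.34 and 4.19 FPKM, while the *Pdgfra-tdT* saline mice had 0.0900, 0.184, 0.0460 and 0.0864 FPKM. Every *Acta2-tdT* mouse was above every *Pdgfra-tdT* mouse. No fold is given, since each *Pdgfra-tdT* saline mouse had less *Adam33* than its own median over the olfactory and vomeronasal receptor genes (0.176 to 0.336 FPKM), a background level described with the order of the members. With bleomycin the *Acta2-tdT* mice had 4.98, 4.65, 2.72 and 4.56 FPKM, a range that overlaps saline, and a log2 difference of 0.10 (SE 0.17).

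Relative to other coding genes, *Adam33* was lower in every bleomycin mouse than in any saline mouse of this line. Its scaled values were 3.38 to 5.62 with saline and 0.307 to 0.989 with bleomycin, a ratio of means of 0.147. The 8 smooth muscle markers were mixed on this scale, with 2 lower in all bleomycin mice, 2 higher and 4 overlapping. The lower ones were *Myh11*, smooth muscle myosin heavy chain (9.74 to 11.8 with saline and 1.66 to 3.32 with bleomycin), and *Lmod1* (3.23 to 5.22 and 0.307 to 1.26), and the higher ones *Des* and *Actg2*. Their scaled sum, mostly made up of *Acta2*, lay between 240 and 355 in saline mice and between 327 and 501 in bleomycin mice. Of 6 pericyte markers 3 were lower (*Cox4i2*, *Notch3* and *Rgs5*), 1 was higher (*Cspg4*) and 2 overlapped (*Pdgfrb* and *Kcnj8*). Their scaled sum was 19.9 to 26.7 with saline, where *Cox4i2* was the largest part (9.94 to 14.5). With bleomycin the sum was 7.16 to 8.36, with *Pdgfrb* the largest part (3.02 to 4.51) and *Cox4i2* at 0.471 to 1.28. The part of these cell types in the values of *Adam33* was not tested. In *Pdgfra-tdT* bleomycin mice *Adam33* stayed at or below 0.168 FPKM, was listed at 0 in mouse 8, and had a Cufflinks lower bound of 0 in all 4 mice.

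**Figure D1:**
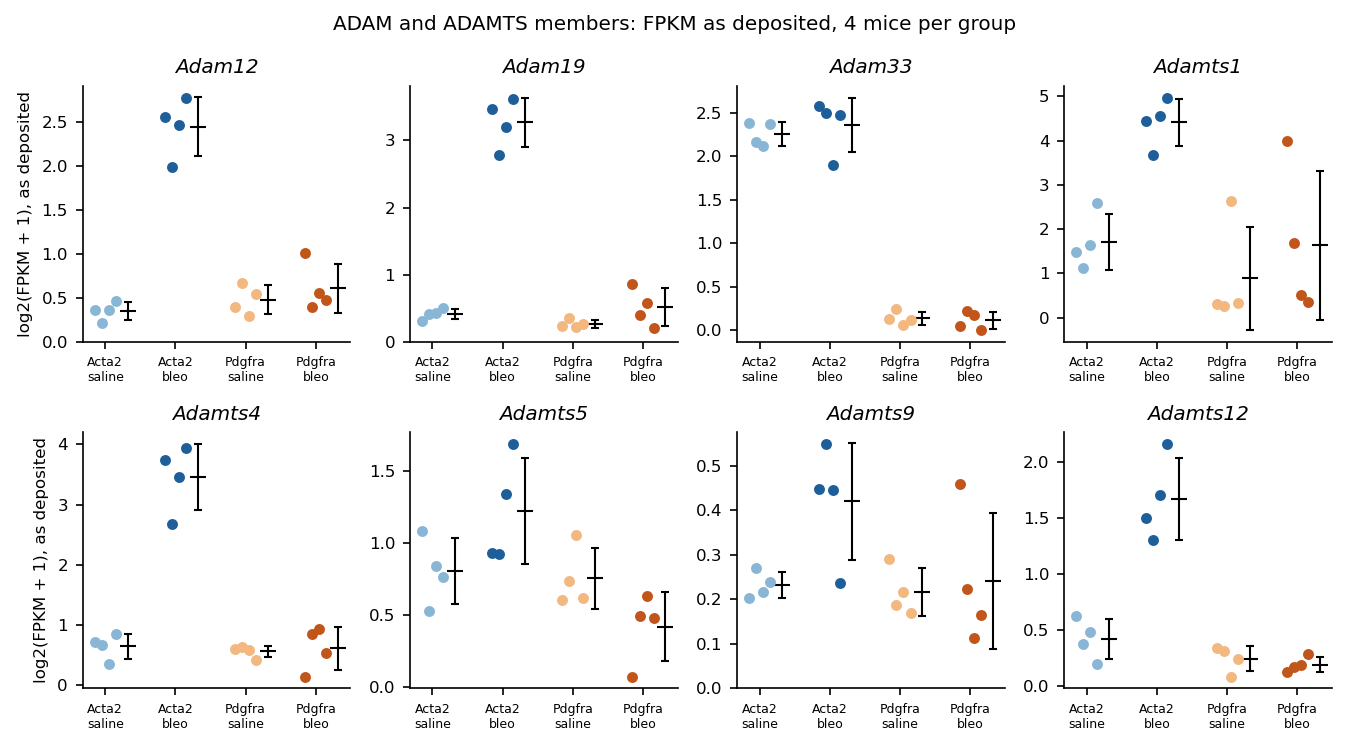
Levels of the 8 members as log2(FPKM + 1), FPKM as deposited, 1 point per mouse and 4 mice in each of the 4 groups (bleo, bleomycin), with the mean and SD in black beside the points. The *Acta2-tdT* bleomycin mice stand above all other groups in *Adam12*, *Adam19*, *Adamts4* and *Adamts12*, and *Adam33* is high in both *Acta2-tdT* groups only.

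*Adamts1*, *Adamts4*, *Adamts5* and *Adamts9* encode the secreted enzymes that cut versican and aggrecan. In *Acta2-tdT* cells the highest of these with bleomycin was *Adamts1*, with 1.81, 1.16, 2.13 and 5.04 FPKM in *Acta2-tdT* saline mice and 20.8, 11.8, 22.4 and 30.3 FPKM in *Acta2-tdT* bleomycin mice. The groups did not overlap, and the log2 difference was 2.70 (SE 0.41). Scaled values overlapped, at 1.60 to 4.28 with saline and 2.52 to 3.22 with bleomycin, a ratio of means of 1.10. *Adamts1* was thus apart between the groups as deposited but not relative to the summed FPKM of the coding genes.

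In *Pdgfra-tdT* cells *Adamts1* was uneven between mice of 1 group. With saline mouse 3 had 5.23 FPKM and the other 3 mice 0.195 to 0.257, and with bleomycin mouse 5 had 14.8 FPKM, mouse 6 had 2.19, and mice 7 and 8 had 0.429 and 0.266. The same 3 mice had the highest sums of 6 endothelial markers in their line, at 333 FPKM in mouse 3, 875 in mouse 5 and 89.8 in mouse 6, against 3.79 to 26.6 in the other 5. All 6 of these markers were highest in mice 3 and 5 among the *Pdgfra-tdT* mice of their own treatment. Mice 3, 5 and 6 also had the line's highest coding sums, at 59839.9, 137952.1 and 49699.8 FPKM against 28512.0 to 42515.1. These 3 mice also had the highest sums of fibroblast markers among the *Pdgfra-tdT* mice, at 68.4, 166 and 22.6 FPKM against 3.02 to 16.4 in the other 5, and of mesothelial markers, at 1.19, 5.85 and 1.23 against 0.347 to 0.613. Among *Acta2-tdT* mice the endothelial sums were 5.84 to 12 FPKM with saline and 18.9 to 24.8 with bleomycin, so they were higher with bleomycin as *Adamts1* was. Scaled, those sums were 5.91 to 10.2 and 2.63 to 4.01, while the *Adamts1* values of both groups overlapped. The part of RNA of other cell types in the *Adamts1* values was not tested.

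**Figure D2:**
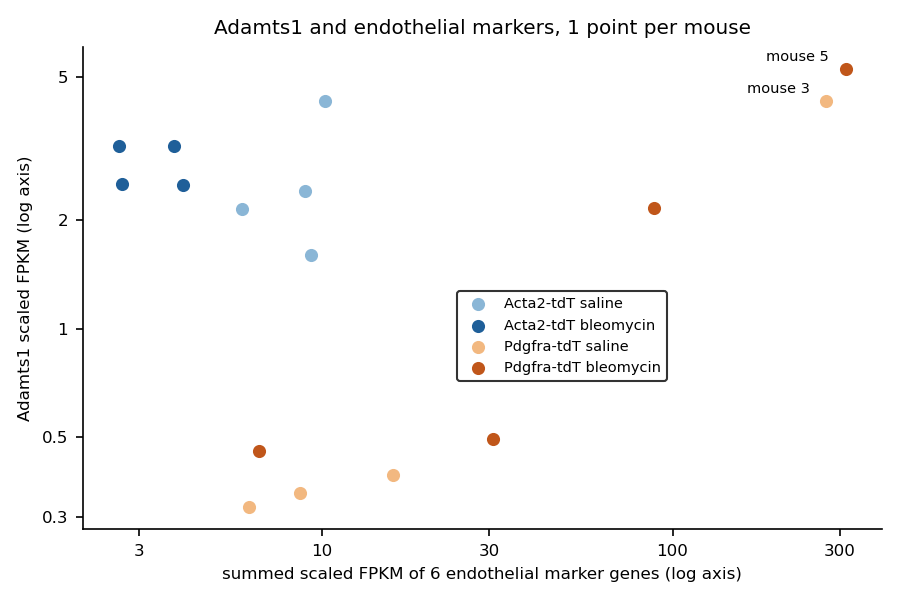
Scaled FPKM of *Adamts1* against the summed scaled FPKM of 6 endothelial marker genes (*Pecam1*, *Cdh5*, *Kdr*, *Tek*, *Vwf* and *Cldn5*), both on log axes, 1 point per mouse. *Pdgfra-tdT* mice 3 and 5 lie at the upper right with *Adamts1* values of 4.30 and 5.27 and marker sums of 274 and 312, and the *Acta2-tdT* bleomycin mice have *Adamts1* values of 2.52 to 3.22 with sums of 2.63 to 4.01.

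*Adamts4*, named aggrecanase-1 after its first known substrate, had 0.652, 0.598, 0.284 and 0.801 FPKM in *Acta2-tdT* saline mice. The bleomycin mice of this line had 12.3, 5.44, 9.96 and 14.4 FPKM, a log2 difference of 2.80 (SE 0.29). The groups were apart as deposited and also after scaling, where 1.12 to 1.91 with bleomycin stood against 0.287 to 0.869 with saline. The summed fibroblast markers moved with *Adam12*, *Adam19* and *Adamts4* on this scale, from 36.2 to 64.7 with saline to 225 to 338 with bleomycin. Of these 9 markers 5 were higher in all bleomycin mice, 1 was lower (*Inmt*) and 3 overlapped. The part of these markers' cells in the values of the members was not tested. The *Pdgfra-tdT* mice had 0.339 to 0.564 FPKM with saline and 0.106 to 0.917 with bleomycin, which overlapped.

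*Adamts5*, the other main aggrecanase and the chromosomal neighbor of *Adamts1*, did not share these changes. It had 1.12, 0.440, 0.790 and 0.699 FPKM in *Acta2-tdT* saline mice and 0.909, 0.902, 1.54 and 2.23 in *Acta2-tdT* bleomycin mice, an overlap, with a log2 difference of 0.42 (SE 0.22). Scaled, it was lower in every bleomycin mouse of this line (0.140 to 0.236) than in any saline mouse (0.594 to 1.5). In *Pdgfra-tdT* cells the scaled values were also apart, at 0.727 to 1.09 with saline and 0.0179 to 0.680 with bleomycin, though the deposited FPKM overlapped. Subtracting a background estimate before scaling, an alternative chosen after the data had been seen, kept the *Pdgfra-tdT* groups apart and made the *Acta2-tdT* groups overlap.

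*Adamts9*, a broadly expressed versican-cutting enzyme, had the lowest mean of the members in both *Acta2-tdT* groups. Its FPKM were 0.152 to 0.206 with saline and 0.178 to 0.464 with bleomycin, which overlapped, and scaling placed all bleomycin mice below all saline mice. With the background subtracted first, every saline value was cut to 0, and the bleomycin values of 0.0158 to 0.0662 lay above that floor. No direction thus holds for this gene. In *Pdgfra-tdT* mice it stayed between 0.0811 and 0.375 FPKM.

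*Adamts12*, which cuts cartilage oligomeric matrix protein, had 0.539, 0.297, 0.402 and 0.147 FPKM in *Acta2-tdT* saline mice. With bleomycin it had 1.82, 1.47, 2.26 and 3.45 FPKM, all above saline, a log2 difference of 1.25 (SE 0.20). Scaled values of 0.255 to 0.366 with bleomycin fell inside those of 0.125 to 0.718 with saline. Its *Pdgfra-tdT* values were at most 0.267 FPKM in all 8 mice.

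**Figure D3:**
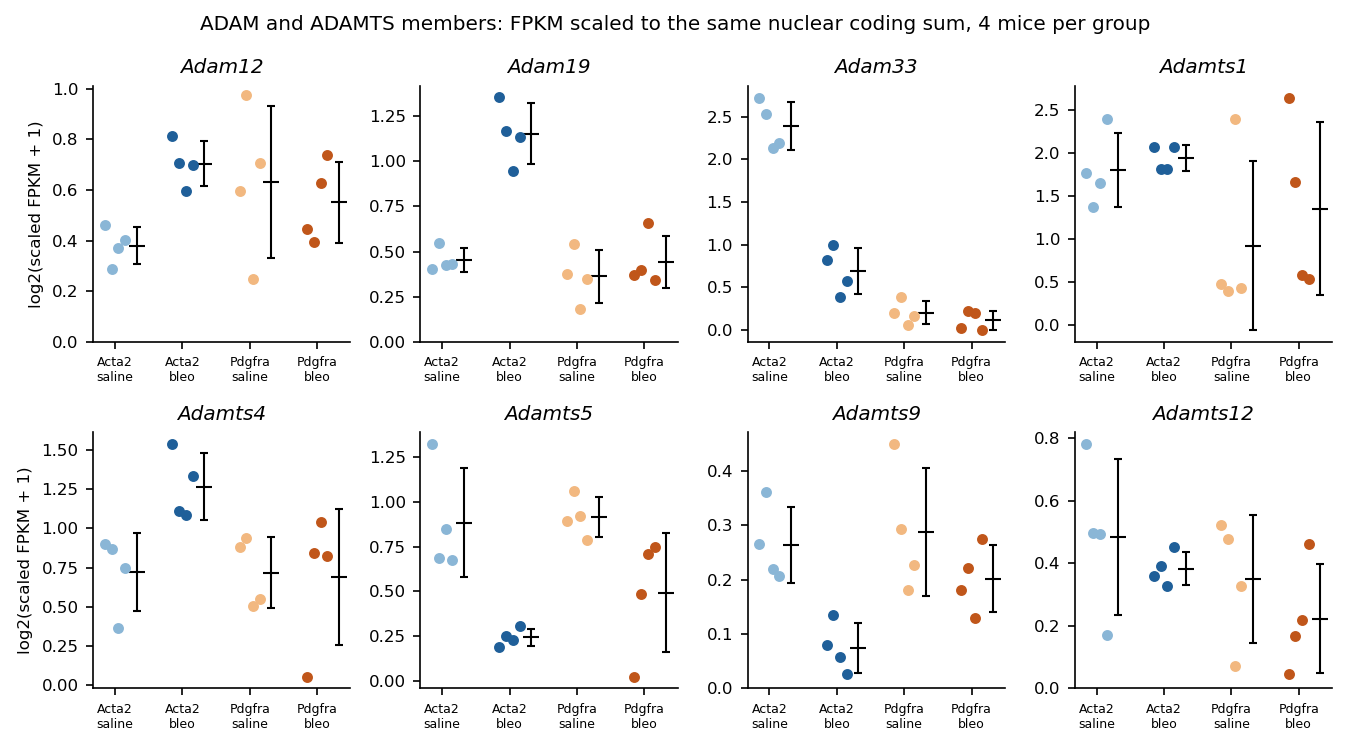
The same mice and genes as log2(scaled FPKM + 1), FPKM scaled to the same nuclear protein-coding sum in each mouse, with the mean and SD in black. *Adam12*, *Adam19* and *Adamts4* are still higher with bleomycin in *Acta2-tdT* cells, *Adamts1* and *Adamts12* overlap saline, and *Adam33*, *Adamts5* and *Adamts9* are lower.

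Counted over the 8 members, 5 were higher in all *Acta2-tdT* bleomycin mice than in all saline mice of that line and 0 were lower, with 3 overlapping. Among all 12523 genes tested, each of which reached 1 FPKM in 4 or more of the 8 mice, 67.8% were apart in that direction and 12.5% in the other. After scaling, 3 members were higher (*Adam12*, *Adam19* and *Adamts4*) and 3 lower (*Adam33*, *Adamts5* and *Adamts9*), against 21.5% and 29.6% of all genes. With the background subtracted before scaling these became 4 higher (*Adamts9* added, its saline values all cut to 0) and 1 lower (*Adam33*). The members' median log2 difference was 1.68 as deposited and 0.02 scaled, beside 1.76 and -0.02 for all genes tested. These counts rest on groups that served to choose the members, so nothing is read from them. Of the 8, 6 passed the filter on low values in this comparison, and *Adam12*, *Adam19*, *Adamts4* and *Adamts12* passed it only through the bleomycin mice.

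**Figure D4:**
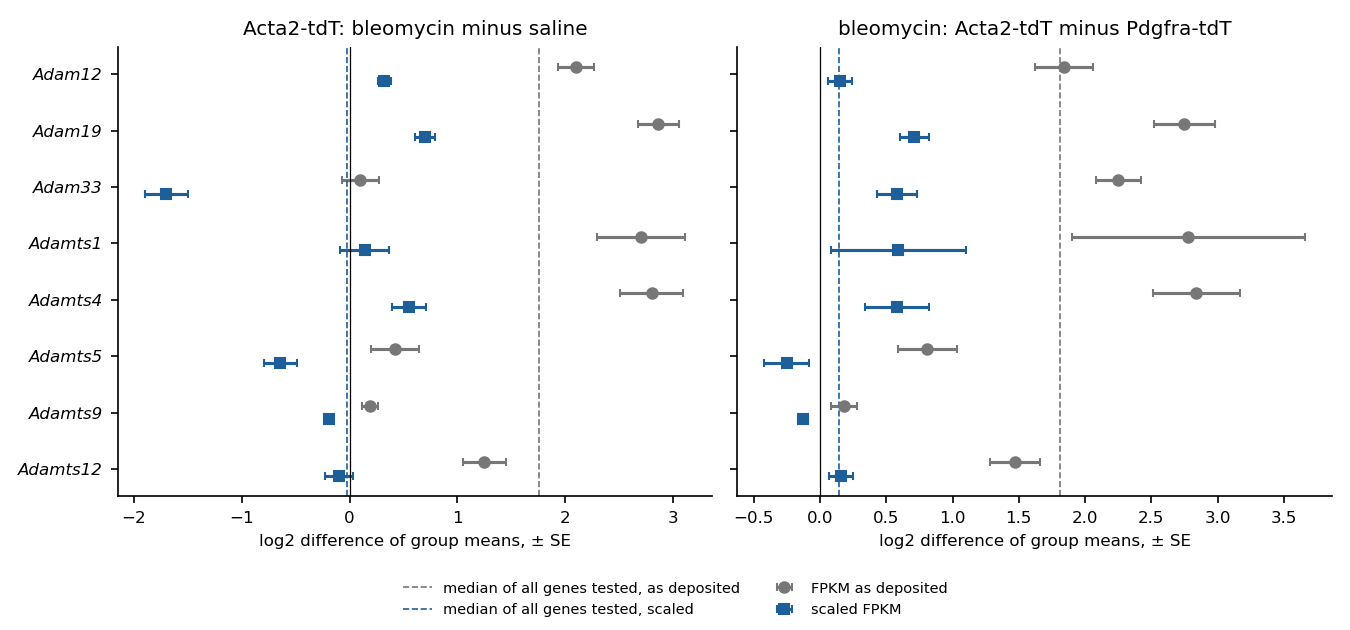
Log2 differences of group means (± SE, 4 mice per group) of the 8 members, bleomycin minus saline in *Acta2-tdT* cells at left and *Acta2-tdT* minus *Pdgfra-tdT* cells with bleomycin at right, as deposited in gray and scaled in blue. Dashed lines mark the median of all genes tested, at left 1.76 as deposited and -0.02 scaled, and *Adam33* is there the member farthest below them.

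With saline, 1 of the 8 members, *Adam33*, was higher in all *Acta2-tdT* than in all *Pdgfra-tdT* mice, as deposited and scaled, beside 6.56% and 7.75% of all genes, and 2 members passed the filter. Leaving out *Pdgfra-tdT* mouse 3 added *Adamts1* to it. With bleomycin, 6 members were higher in *Acta2-tdT* cells (*Adam12*, *Adam19*, *Adam33*, *Adamts4*, *Adamts5* and *Adamts12*), beside 56.8% of all genes. Scaled, 3 were higher (*Adam19*, *Adam33* and *Adamts4*), beside 18.9%, and with the background subtracted before scaling 5, with *Adam12* and *Adamts12* added. Without *Pdgfra-tdT* mouse 5 the 6 became 8, as *Adamts1* and *Adamts9* no longer overlapped. *Adam19* had 0.826, 0.322, 0.501 and 0.156 FPKM and *Adam12* 1.02, 0.317, 0.470 and 0.388 in *Pdgfra-tdT* bleomycin mice, none of which reached the lowest *Acta2-tdT* bleomycin mouse. This comparison shares its *Acta2-tdT* bleomycin mice with the one before.

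Within the *Pdgfra-tdT* line, 0 members were apart between bleomycin and saline as deposited, beside 1.43% of all genes higher and 1.15% lower. After scaling 1 was lower (*Adamts5*), beside 0.962%. None of the 8 passed the filter on low values in this line.

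The order of the members differed between groups. In *Acta2-tdT* saline mice the means fell from *Adam33* (3.81 ± 0.457 FPKM, SD, n = 4) over *Adamts1* (2.54 ± 1.72) and *Adamts5* (0.763 ± 0.282) to *Adamts9* (0.175 ± 0.0238). In *Acta2-tdT* bleomycin mice they fell from *Adamts1* (21.4 ± 7.59) over *Adamts4* (10.5 ± 3.85), *Adam19* (8.88 ± 2.38), *Adam12* (4.57 ± 1.20), *Adam33* (4.23 ± 1.02), *Adamts12* (2.25 ± 0.865) and *Adamts5* (1.39 ± 0.630) to *Adamts9* (0.342 ± 0.119). The ranges of most neighbors in this order overlapped, and only *Adamts5* and *Adamts9* were apart. With saline *Adam33* was above *Adamts1* in 3 of 4 mice, and *Adamts9* was under *Adam12*, the next above it, in 3 of 4. Mouse by mouse, *Adamts1* was above *Adamts4* in 4 of 4 bleomycin mice, *Adamts4* above *Adam19* in 3 of 4, and *Adam12* above *Adam33* in 2 of 4. *Adam33* made up 44.4% of the members' summed FPKM in *Acta2-tdT* saline mice and 8.56% in the bleomycin mice, and *Adam19* 3.90% and 16.7%.

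Several saline values lie where genes without a role in lung are also found. In *Acta2-tdT* saline mice the median FPKM of 1445 olfactory and vomeronasal receptor genes was 0.323 to 0.332, and that of 21 ADAM genes best known from the testis, a list picked after their values had been seen, was 0.206 to 0.219. *Adam12*, *Adam19*, *Adamts9* and *Adamts12* were in that region with saline, so their differences are not folds from a clearly measured starting level. *Adamts4* in mouse 3 was also under its receptor median. The 90th percentile of the receptor genes was 1.52 to 1.72 FPKM in these mice, above every saline value of *Adamts4* and *Adamts5*, and *Adam33* was the member above it in all 4. *Adam33* was below the receptor median of the same mouse in all 8 *Pdgfra-tdT* mice. The receptor median fell to 0.0134 to 0.122 in *Acta2-tdT* bleomycin mice, where 5 to 7 of the members were above every testis ADAM gene, against 2 to 3 in the saline mice of this line. In *Pdgfra-tdT* mice these numbers were 0 to 1 with saline and 0 to 3 with bleomycin.

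RefSeq promoter windows of GRCm38.p6, from 250 bases before to 50 after a start, were found for 4 members (*Adam19*, *Adamts1*, *Adamts9* and *Adamts12*), and the 150 bases before the start of *Adam19*, higher with bleomycin on either scale, and of *Adamts1*, higher only as deposited, are given 5′ to 3′ on the strand of the gene, to set the sequence before them side by side. Capitals mark whole matches, on either strand, to the TATA box TATAAA, the AP-1 site TGANTCA, the TEAD site GGAATG or the GC box GGGCGG, none of which overlapped. *Adam19* has 3 such windows, and the one shown is that next to the start of the gene given above. The windows at chr11:46054252-46054551 and chr11:46127654-46127953 hold 0 matches to these motifs. The first stretch is chr11:46055834-46055983 on the plus strand and the second chr16:85803114-85803263 on the minus strand.
*Adam19*: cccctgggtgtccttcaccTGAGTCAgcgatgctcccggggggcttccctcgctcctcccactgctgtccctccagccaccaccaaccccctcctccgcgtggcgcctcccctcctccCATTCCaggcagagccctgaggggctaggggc
*Adamts1*: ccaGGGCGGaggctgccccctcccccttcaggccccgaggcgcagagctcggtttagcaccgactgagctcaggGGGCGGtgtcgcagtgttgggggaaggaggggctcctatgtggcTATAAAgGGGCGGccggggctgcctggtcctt

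The *Adam19* stretch holds an AP-1 match starting 131 bases before the start and a TEAD match on the other strand 32 bases before it, and no TATAAA. A GC box of *Adam19* begins 4 bases before the start and runs past it, so it is not in capitals. *Adamts1* holds TATAAA 32 bases before the start and 3 GC boxes, at 147, 76 and 25 bases before it. Of 32851 promoter windows of 300 bases, 7.81% held TGANTCA, 14.7% GGAATG, 13.6% TATAAA and 35.7% GGGCGG. The CArG box of smooth muscle genes (1.63% of all windows) was in none of the windows of these 4 members. These matches describe letters and are not shown to be sites.

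Related genes were the 50 other family genes, 14 regulators of these enzymes, 8 proteoglycan and matrix substrates and 10 shed substrates, 82 in all. They were tested with limma, with Benjamini-Hochberg adjustment over all genes tested. In *Acta2-tdT* cells 28 of 33 tested related genes were higher with bleomycin and 1 lower, beside 70.4% and 16.3% of all genes. Scaled, 17 were higher and 9 lower, beside 23.9% and 32.6%. As deposited, fits without 1 mouse called 17 to 28 of the related genes, the fewest without a bleomycin mouse. The median log2 difference of the 33 was 2.47 as deposited and 0.37 scaled. The summed fibroblast markers, which include the substrate *Dcn*, moved with this, from scaled sums of 36.2 to 64.7 with saline to 225 to 338 with bleomycin. Of these 9 markers 5 were higher in all bleomycin mice (*Col1a1*, *Col1a2*, *Col3a1*, *Dcn* and *Lum*), 1 was lower (*Inmt*) and 3 overlapped, and their part in these counts was not tested.

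Of the inhibitors, *Timp1* had the largest rise. Its FPKM were 3.27 to 5.10 in *Acta2-tdT* saline mice and 811 to 2060 in *Acta2-tdT* bleomycin mice, a log2 difference of 7.96 (SE 0.40, limma adjusted p = 2.86e-06) and of 5.00 scaled (SE 0.30). *Timp3*, the TIMP known to block ADAMTS enzymes best, was the highest TIMP with saline. It went from 11.4 to 25.7 FPKM up to 41.9 to 76.1 FPKM (log2 difference 1.70, SE 0.39, limma adjusted p = 0.00188) but fell by 1.14 on the log2 scale once scaled (SE 0.23, limma adjusted p = 0.00214). *Timp1* was thus under *Timp3* in each saline mouse and above it in each bleomycin mouse. Of the 10 regulators tested, 9 were higher as deposited, beside 70.4% of all genes. Scaled, 6 were higher and 2 lower (*Timp3* and *Timp4*), beside 23.9% and 32.6%. The endocytic receptor *Lrp1*, which clears ADAMTS4 and ADAMTS5, rose from 0.325 to 1.02 FPKM to 4.88 to 17.6 FPKM, a log2 difference of 3.04 (SE 0.40) and of 0.69 scaled (SE 0.23, limma adjusted p = 0.0290).

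All 4 tested matrix substrates (*Vcan*, *Bgn*, *Fmod* and *Dcn*) rose, both as deposited and scaled, beside 70.4% and 23.9% of all genes. In this comparison *Vcan* passed the filter only through the bleomycin mice, since no saline mouse reached 1 FPKM. *Vcan* encodes the versican core protein, which the products of *Adamts1*, *Adamts4*, *Adamts5* and *Adamts9* cut. It had 0.379 to 0.975 FPKM with saline and 7.62 to 26.5 with bleomycin in *Acta2-tdT* mice. The log2 difference was 3.62 (SE 0.39) and 1.11 scaled (SE 0.22, limma adjusted p = 0.00188). *Bgn* (biglycan) rose from 5.98 to 13.7 FPKM to 246 to 823 FPKM, 2.67 scaled (SE 0.30), and *Dcn* (decorin) from 7.45 to 25.8 to 219 to 535 FPKM, 1.51 scaled (SE 0.32). The other 4 of the list did not pass the filter. Of the 4 tested shed substrates all rose as deposited, beside 70.4% of all genes. After scaling *Hbegf* was higher (0.66, SE 0.23) and *Igfbp5* lower (-0.76, SE 0.23), beside 23.9% and 32.6%.

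Among the 15 tested family genes outside the members, 11 were higher and 1 lower with bleomycin in *Acta2-tdT* cells, beside 70.4% and 16.3% of all genes. After scaling 6 were higher and 6 lower, beside 23.9% and 32.6%. *Adamts2*, a procollagen N-propeptidase, had 0.893 to 1.29 FPKM with saline and 15.4 to 51.9 with bleomycin, a log2 difference of 3.94 (SE 0.39) and of 1.29 scaled (SE 0.19, limma adjusted p = 0.000308). *Adam10* and *Adam17*, the main sheddases of most cells, rose as deposited by 2.47 (SE 0.27) and 2.03 (SE 0.22). Their scaled differences of 0.33 (SE 0.14, limma adjusted p = 0.0641) and 0.13 (SE 0.15, limma adjusted p = 0.474) did not pass. *Adam28*, an ADAM first described in lymphocytes, fell from 1.49 to 2.01 FPKM to 0.276 to 0.802 FPKM, by 0.98 on the log2 scale as deposited (SE 0.17) and by 1.5 scaled (SE 0.16).

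**Figure D5:**
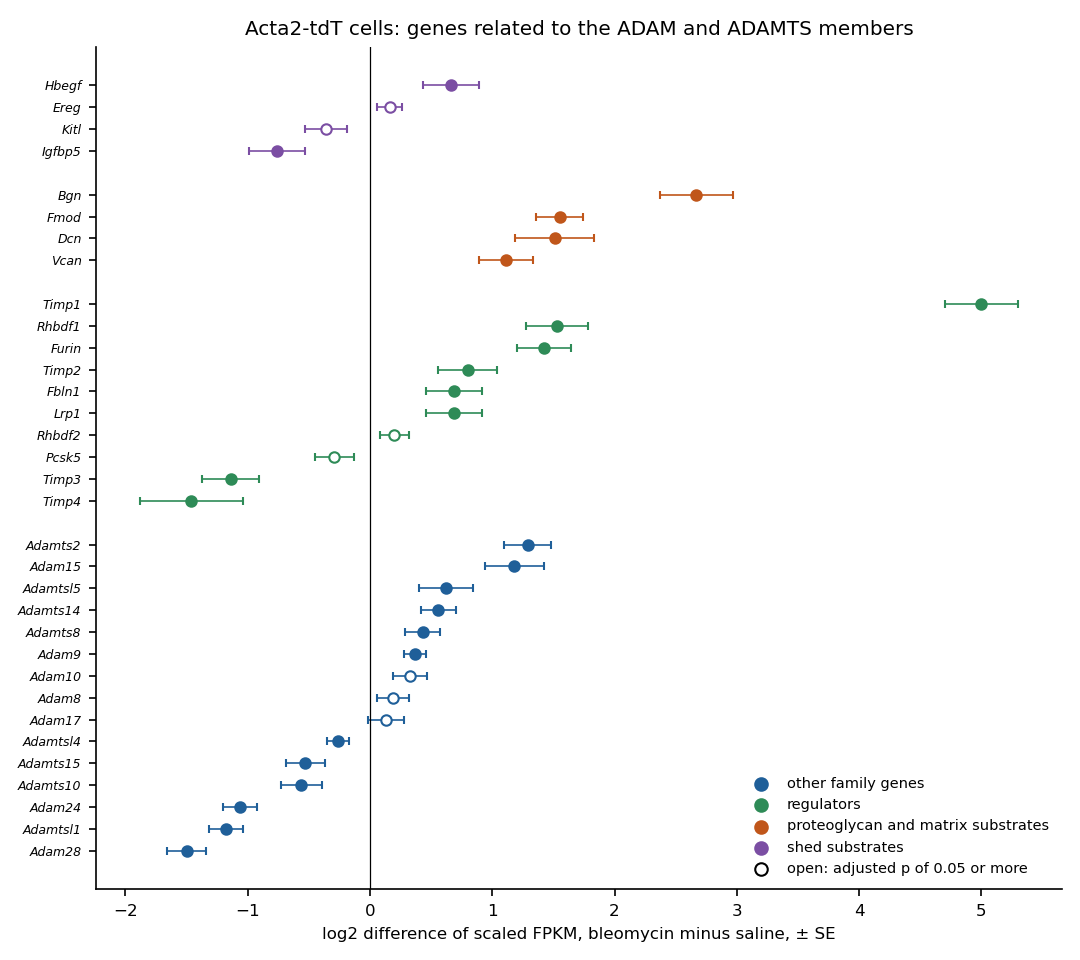
Log2 differences of scaled FPKM (bleomycin minus saline, ± SE, 4 mice per group) in *Acta2-tdT* cells for the 33 tested related genes, by list. Filled points had a limma adjusted p-value under 0.05, of which 17 lie above and 9 below 0, with *Timp1* at 5.00 and *Adam28* at -1.5.

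With saline, 3 of 13 tested related genes were higher in *Acta2-tdT* than in *Pdgfra-tdT* cells (4 scaled), beside 2.72% and 3.20% of all genes, and 0 were lower. *Timp3* had 11.4 to 25.7 against 0.457 to 1.62 FPKM (log2 difference 3.30, SE 0.35, limma adjusted p = 0.00334), *Igfbp5* 2.54 to 4.83 against 0.124 to 0.449 (1.91, SE 0.21) and *Bgn* 5.98 to 13.7 against 0.256 to 2.75 (2.04, SE 0.42, limma adjusted p = 0.0438). Without *Pdgfra-tdT* mouse 3 the 3 became 7, and without any 1 of the *Acta2-tdT* saline mice they became 1, where *Igfbp5* no longer had the 4 mice with an FPKM of 1 that the filter needs and was not tested. *Bgn* passed only narrowly and lost its call in 7 of the 8 fits without 1 mouse.

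With bleomycin, 29 of 32 tested related genes were higher in *Acta2-tdT* than in *Pdgfra-tdT* cells and 17 after scaling, beside 71.0% and 15.8% of all genes. The largest were *Timp1* (7.99, SE 0.98), *Bgn* (7.15, SE 0.92) and *Dcn* (5.38, SE 1.24), with scaled log2 differences of 5.4, 4.61 and 2.83. As deposited, fits without 1 mouse called 18 to 30. The fibroblast markers, which include *Dcn*, had scaled sums of 225 to 338 against 4.25 to 59.2. Of these 9 markers 5 were higher in *Acta2-tdT* cells, 0 lower and 4 overlapped, and their part was not tested. In *Pdgfra-tdT* cells bleomycin changed 0 of 8 tested related genes by limma, scaled or not, beside 0.0275% of all genes higher and 0.0962% lower. Over all genes of that comparison 9 passed, and for 312 the p-value before adjustment was under 0.05.

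Whether bleomycin acted differently in the lines was tested as the interaction of line and agent over all 16 mice, which passed for 20 of 34 tested related genes and for 3 after scaling, beside 39.8% and 2.22% of all genes. Those 3 were *Timp1*, *Adamts2* and *Fmod*, of which *Fmod* was chosen for naming after its values had been seen. The scaled interaction of *Fmod* was 1.71 (SE 0.25, limma adjusted p = 0.00192).

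The genes outside the family whose pattern was most like the mean of the 8 members were *Hspb2*, *Pglyrp1*, *Tmem178*, *Tbx2*, *H2-Q10*, *Dmpk*, *Lpp* and *Fads3*. Their Pearson correlations over the 16 mice, on log2(scaled FPKM + 1), were 0.926 to 0.961, the highest of 7170 coding genes. All 8 had higher means in each *Acta2-tdT* group than in either *Pdgfra-tdT* group. The correlations span both lines and 16 libraries whose coding sums differed before scaling, and the part of either was not tested. Among the members themselves the correlation of *Adam19* and *Adamts4* was 0.98 as deposited and 0.79 scaled, while that of *Adam19* and *Adamts9* turned from 0.65 to -0.65 with the scaling.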

How the data were processed

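RNA of sorted tdTomato-positive lung cells of 16 mice was sequenced. The authors aligned reads to mm10/GRCm38 with TopHat2 2.1.1 and Bowtie2 and computed FPKM per gene and mouse with Cufflinks 2.1.1; the deposited FPKM and their lower and upper bounds were used. No counts were used, so depth is unknown and no counting interval was computed. Nothing states that mice of a group came from separate litters or handling days.

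Rows of a gene were summed (68 genes had several), and 15 genes that Cufflinks did not mark as OK were left out. Scaling set the summed FPKM of 21950 nuclear protein-coding genes to 49122.5 in each mouse. Related genes were tested with limma 3.58.1 (R 4.3.3; lmFit, eBayes with trend) on log2(FPKM + 1), for genes that reached an FPKM of 1 in 4 or more mice of a fit, at a Benjamini-Hochberg threshold of 0.05. Only the 2 groups compared entered a fit, and all 16 mice the interaction. The procedure was tested on simulated data. Tables were handled with Python 3.11.15, pandas 2.3.3 and NumPy 2.4.6, and plots with matplotlib 3.10.9.

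The members, the lists of related and marker genes and the alternatives were chosen with earlier results of these data known. All 8 members are named. Related genes are named where they had 1 of the 3 largest rises or falls passing both as deposited and scaled, beside *Timp3*, *Vcan*, *Adam10*, *Adam17*, *Adamts2* and *Lrp1*. *Fmod*, *Hbegf*, *Timp4* and, in *Acta2-tdT* cells, *Igfbp5* are members of short counts and were named after their values had been seen. The medians of the marker sums as deposited, with saline and then bleomycin in *Acta2-tdT* and then with saline and bleomycin in *Pdgfra-tdT* mice, were 284, 2530, 12.3 and 2.45 for smooth muscle, 40.4, 2080, 13.6 and 13.1 for fibroblast, 19.4, 58.8, 1.60 and 1.81 for pericyte, 1110, 6800, 78.7 and 1540 for leukocyte, 6.74, 24.1, 8.03 and 58.2 for endothelial, 113, 913, 51.4 and 137 for epithelial, and 0.754, 19.9, 0.577 and 0.920 for mesothelial markers.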

Additional observations from a re-analysis of the deposited data

Results flagged for a closer look

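*Adamts1* in *Pdgfra-tdT* cells had 1 mouse far from the other 3 in each group, mouse 3 with saline (5.23 FPKM) and mouse 5 with bleomycin (14.8 FPKM), where the gap to the nearest mouse was 0.988 and 0.868 of the range. These values are a description, since the levels of the members served to choose them. The 8 members in 4 groups gave 32 such looks. They are not independent, so the rate of about 1 in 20 for separate looks does not apply, and nothing is read from 2 marked groups. Mice 3 and 5 also had the highest endothelial marker sums of their groups, 333 and 875 FPKM, and the part of this was not tested.

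The effect of bleomycin was larger in *Acta2-tdT* than in *Pdgfra-tdT* cells by the test of the interaction for 6 named related genes. The interaction, as deposited, was 7.81 for *Timp1*, 5.11 for *Bgn*, 3.66 for *Adamts2*, 3.39 for *Vcan*, 2.35 for *Lrp1* and 1.71 for *Adam17* on the log2 scale. Scaled, it was 5.38 for *Timp1* and 1.29 for *Adamts2*, which still passed, and 2.61 for *Bgn*, 1.03 for *Vcan*, 0.23 for *Lrp1* and 0.04 for *Adam17*, which did not. The median interaction of all genes tested was 1.05 as deposited and -0.25 scaled.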

How the results depend on the processing

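Scaling moved the count of related genes with a difference from 29 to 17 between the lines with bleomycin and from 20 to 3 for the interaction, and that of members apart from 6 to 3 between the lines with bleomycin and from 0 to 1 in *Pdgfra-tdT* cells. Subtracting the receptor background before scaling, chosen after seeing the data, gave 6 for the interaction and 1 member apart in *Pdgfra-tdT* cells. *Timp3* with bleomycin in *Acta2-tdT* cells turned from 1.70 to -1.14 scaled and to -1.27 with the background subtracted. A mean FPKM of at least 5, which tests fewer genes, left 1, 16, 16 and 8 related genes with saline, with bleomycin, in *Acta2-tdT* cells and for the interaction, and a pseudocount of 0.1 left 12 for the interaction. No other alternative moved these counts by over 1.5 times, apart from the block and the fits without 1 mouse. A pseudocount of 0.1 moved 21 of the 32 log2 differences of the members by more than the spread between mice, and subtracting the background 17. The cause was not tested.

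Without 1 mouse, related genes counted 1 to 7 with saline, 18 to 30 with bleomycin, 17 to 28 in *Acta2-tdT* cells, 0 to 0 in *Pdgfra-tdT* cells and 14 to 27 for the interaction (27 without *Pdgfra-tdT* mouse 5). Leaving out any *Acta2-tdT* bleomycin mouse gave 18 to 20 with bleomycin and 17 to 18 in *Acta2-tdT* cells, since a gene still needed 4 mice with an FPKM of 1. Members apart counted 1 to 2 with saline, 6 to 8 with bleomycin, 5 to 6 in *Acta2-tdT* cells and 0 to 1 in *Pdgfra-tdT* cells.

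The replicate number as a block left 1 of 3 related genes with saline and 30 with bleomycin. Mice of the 2 lines share only the number, as the correlations of their deviations were -0.086 to 0.157 with saline and -0.307 to 0.071 with bleomycin, and not every mouse correlated best with its own number. FPKM carry no depth, and levels near those of the receptor genes limit what can be said of low members.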
